A study of Mus musculus with 6 samples.

Results

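Macrophage genes of the embryonic mouse heart were examined in RNA from the atrioventricular canal region, the part of the heart that holds the forming mitral and tricuspid valves. The 10 genes were taken by symbol as markers of heart macrophages, and no measured value entered the rule. They were Csf1r, Cx3cr1, Mrc1, Lyve1, Cd68, Aif1, Lyz2, C1qa, C1qb and C1qc. All 10 were found among the 18810 genes of the deposited table. The samples were 3 Scx-/- embryos, which lack the transcription factor Scleraxis, and 3 Scx+/+ littermates, all of the C57BL/6 strain at embryonic day 15.5. Each embryo gave 1 RNA library, from tissue whose cells were not sorted. The tissue held the aortic valve as well as those of the canal, and was cut so as to keep heart muscle low. Values are RPKM, read densities scaled to exon length and library depth, so that levels can be set side by side between genes. Readings too low to keep stand at a common fill-in value of 0.0949 RPKM. The depth recovered from the values was 52323219, 66991300 and 59738115 reads in the Scx-/- libraries, in the order of replicates 1 to 3 kept below, and 60028064, 46429950 and 68571039 reads in the Scx+/+ libraries.

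Macrophages enter the embryonic heart before birth, from yolk sac progenitors at first and from fetal monocytes later. They settle in the wall, under the epicardium and in the valves, where they take up dying cells and matrix debris. Their survival depends on the receptor Csf1r, which binds the growth factors Csf1 and Il34. Resident cells of the heart typically carry scavenger and endocytic receptors such as Mrc1 and Lyve1, and they are a main source of C1q, the recognition molecule of the classical complement pathway. C1q is built from 3 chains, each from its own gene.

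The level of Scx in the table could not serve as a check of the labels. The study measured the first exon separately before sequencing, which was not analysed here. The deletion takes the first exon, while the table holds 1 value per gene over all exons. The gene read 33.6, 18.6 and 82.9 RPKM in the libraries labelled Scx-/- and 29.5, 58.3 and 26.0 RPKM in those labelled Scx+/+, a log2 fold change of 0.07 ± 0.51 (SE). A value over all exons would include any Scx RNA from outside the deleted exon, but which exons the reads came from was not tested. Group names below are those of the labels. Xist, the RNA of the inactive X chromosome, was at 21.7 RPKM in Scx-/- replicate 2 and 12.7 RPKM in Scx+/+ replicate 2 and at the fill-in value in the other 4 libraries, so replicate 2 of each genotype was female and replicates 1 and 3 were male.

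A pair of libraries, 1 of each genotype, stood apart from the other 4 (Scx-/- replicate 3 and Scx+/+ replicate 2). Hbb-y, an embryonic globin of primitive red cells, was at 1.16 and 1.99 RPKM in these libraries, against 49.6, 125, 59.2 and 80.7 RPKM in Scx-/- replicates 1 and 2 and Scx+/+ replicates 1 and 3. Of the 9 erythroid genes listed, 2 (Hbb-y and Slc4a1) were lowest in the pair. The globins Hbb-b1, Hbb-b2, Hba-a1 and Hba-a2 were lowest in Scx+/+ replicate 1. Ly6c1, found on monocytes and on some endothelium, was at 14.9 and 15.2 RPKM in the pair and at 0.615 to 1.22 RPKM in the other 4. The central complement protein C3 was at 2.5 and 2.12 RPKM against at most 0.374 RPKM. Of the 13827 genes that averaged 1 RPKM or more, 2694 (19.5%) were lowest in exactly these libraries and 1803 (13%) were highest in them. The 10 most abundant genes also took 56.9% of all RPKM in the second member of the pair, where the remaining libraries had 30.7% to 43.9%. Of the 10 macrophage genes 3 (Csf1r, Cx3cr1 and Lyz2) were lowest in the pair, as were 18.3% of all 18810 genes, and 1 (Lyve1) was highest there, as were 10.7% of all genes. The differences of the 10 genes and the counts of calls on each list are given below with and without the pair, a choice made after seeing the data.

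**Figure D1:**
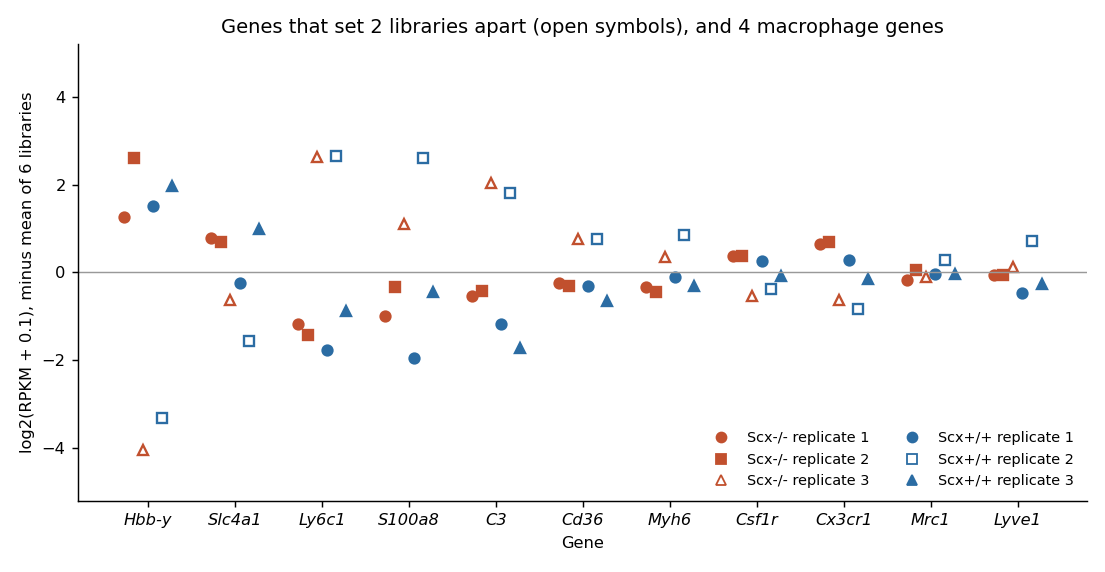
Level of each gene in each library as log2(RPKM + 0.1) minus its mean over 6 libraries, for 7 genes chosen after their values were seen and for 4 macrophage genes; red is Scx-/-, blue is Scx+/+, and open symbols are the pair of libraries that stood apart. The open symbols lie lowest for Hbb-y, Slc4a1, Csf1r and Cx3cr1 and highest for Ly6c1, S100a8, C3, Cd36, Myh6 and Lyve1. Hbb-y and Slc4a1 are the 2 of 9 erythroid genes that were lowest in the pair.

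RNA of the macrophage genes was present in every library at low to moderate levels. Lyz2, the lysozyme of macrophages, monocytes and granulocytes, led with a mean of 29.8 RPKM ± 4.77 (SD, n = 6). C1qa followed at 4.15 RPKM, Lyve1 at 3.82 RPKM, Mrc1 at 3.80 RPKM and C1qb at 2.49 RPKM. Csf1r, C1qc, Cx3cr1, Aif1 and Cd68 had means between 0.976 and 0.654 RPKM, below the median gene of the table at 3.43 RPKM. Lyz2 exceeded C1qa in 6 of 6 libraries, Mrc1 exceeded C1qb in 6 of 6 and C1qb exceeded Csf1r in 6 of 6. Neighbours in this order among C1qa, Lyve1 and Mrc1 did not differ beyond the SD of their difference over libraries, and nor did neighbours among the 5 lowest genes. These levels stood on 25 to 3230 reads per gene and library, apart from 1 value of Cd68. For each of the 10 genes the 95% counting intervals (exact Poisson) of its highest and lowest measured library did not overlap, with the fill-in value of Cd68 left out since it is not a count. Such intervals cover counting error only.

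**Figure D2:**
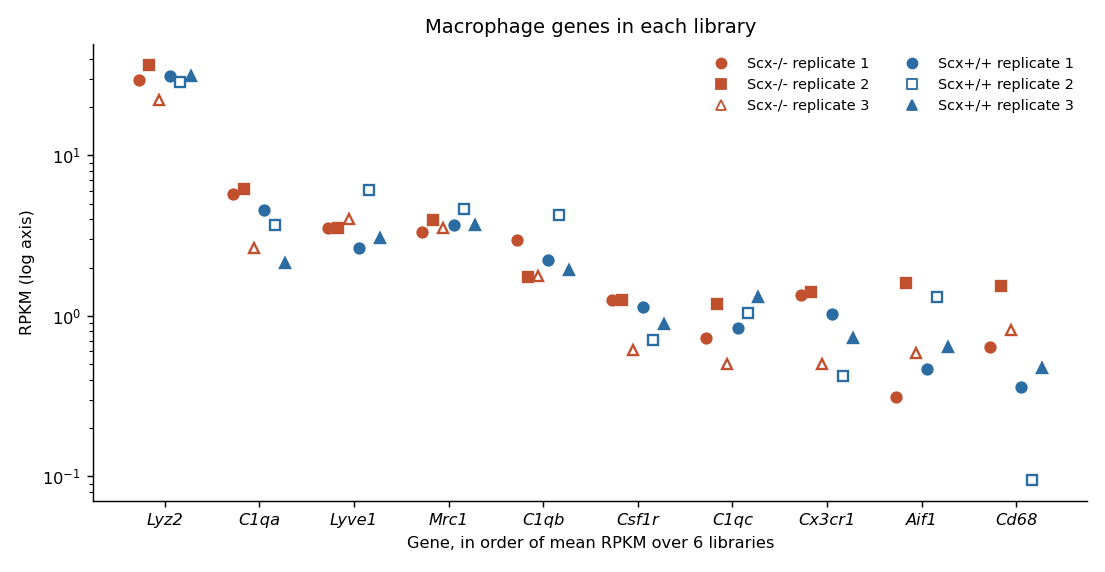
RPKM of the 10 macrophage genes in each of the 6 libraries on a log axis, in order of their mean; red is Scx-/-, blue is Scx+/+, and open symbols are Scx-/- replicate 3 and Scx+/+ replicate 2. Lyz2 lies above all others, between 22.0 and 36.7 RPKM, and Cd68 is the gene whose groups do not overlap, with Scx+/+ replicate 2 at the fill-in value of 0.0949 RPKM.

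Between genotypes, 1 of the 10 genes passed an unadjusted p of 0.05 in limma, where 3.89% of all genes did (731 of 18810). That gene was Cd68, higher in Scx-/-, a direction in which 2.82% of all genes were called. After Benjamini-Hochberg adjustment 0% of all genes and none of the 10 passed in limma, with a smallest adjusted p of 0.173 over the table and 0.967 over the 10. With the variance of each gene taken alone, 865 genes passed at an unadjusted p of 0.05 and 1 gene after adjustment, with 0 of the 10 in either count. The median log2 fold change was -0.04 over the 10 genes and 0.10 over all genes, with 5 of the 10 above 0. Of the calls over the whole table, 531 were higher and 200 lower in Scx-/-. Setting the median of each library to 0 shifted the median of all genes by -0.11 and gave 281 higher and 365 lower, and quantile normalization gave 352 higher and 353 lower. Without Scx+/+ replicate 2 the calls over all genes numbered 1549. Relative to the median of all genes, 4 of the 10 genes were higher in Scx-/-. In bulk tissue, a change in the number of macrophages and a change in RNA per macrophage cannot be told apart.

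**Figure D3:**
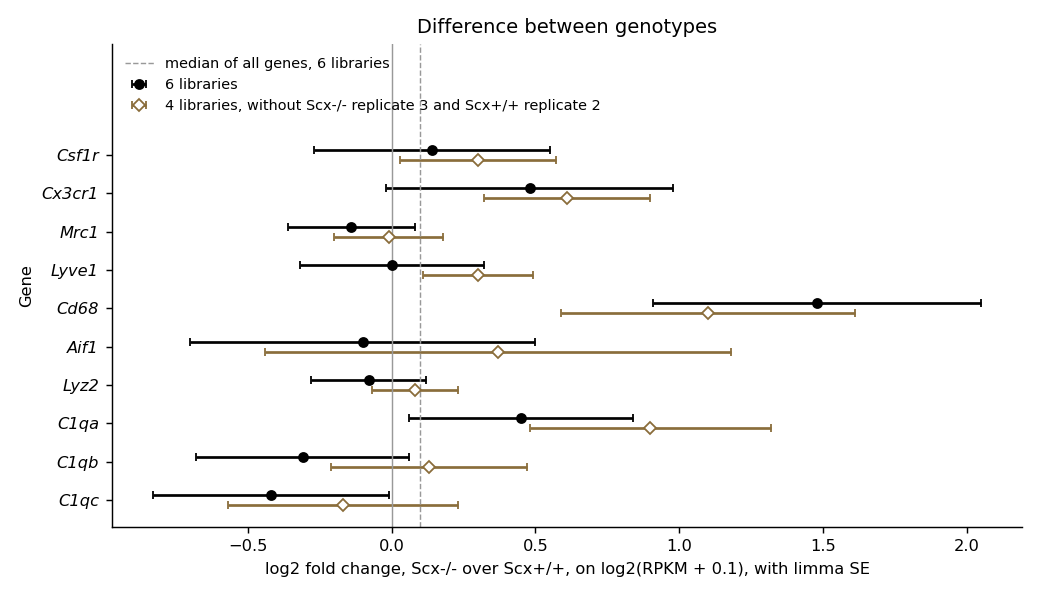
Difference between genotypes for the 10 genes as log2 fold change of Scx-/- over Scx+/+ on log2(RPKM + 0.1), with limma standard errors as bars; filled circles use 6 libraries, open diamonds the 4 left without Scx-/- replicate 3 and Scx+/+ replicate 2, and the dashed line is the median of all genes. Cd68 lies farthest from 0, at 1.48 with 6 libraries and 1.10 with 4, and Lyve1 and Mrc1 lie at 0.00 and -0.14 with 6 libraries.

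Csf1r encodes the receptor tyrosine kinase on which macrophages depend, and lies on chromosome 18. Its levels were 1.26, 1.25 and 0.615 RPKM in Scx-/- replicates 1 to 3 and 1.14, 0.704 and 0.887 RPKM in Scx+/+ replicates 1 to 3. The groups overlapped, and the lowest library of each genotype was the one that stood apart. The log2 fold change was 0.14 ± 0.41 (SE), and 0.30 ± 0.27 without the pair. The annotation has Hmgxb3 overlapping Csf1r on the opposite strand. The counting was not stated to use strand, so reads in shared exons could belong to either gene.

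Cx3cr1, the fractalkine receptor of monocytes and resident macrophages (chr9:119957811-119977400, mm9, minus strand), was lowest in the same pair. It was at 1.35, 1.4 and 0.503 RPKM in Scx-/- and 1.02, 0.422 and 0.731 RPKM in Scx+/+. The 112 and 73 reads of the pair gave intervals of 0.414 to 0.605 RPKM and 0.330 to 0.530 RPKM, below those of every other library. Within either genotype the library that stood apart was thus the lowest. The log2 fold change was 0.48 ± 0.50 with all libraries and 0.61 ± 0.29 without the pair, which did not pass (limma, unadjusted p = 0.107, adjusted p = 0.591).

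Mrc1, the mannose receptor CD206 (chr2:14151041-14253684, plus strand), varied least of the 10 genes, by 1.39-fold between its highest and lowest library. Its levels were 3.35, 3.96 and 3.51 RPKM in Scx-/- and 3.68, 4.64 and 3.68 RPKM in Scx+/+. The highest value belonged to Scx+/+ replicate 2, where Cx3cr1 was lowest. Per unit of Mrc1, Cx3cr1 therefore stood at 0.403, 0.354 and 0.143 in Scx-/- and at 0.277, 0.0908 and 0.199 in Scx+/+, a ratio of RPKM. The same ratio for Csf1r was 0.377, 0.317 and 0.175 in Scx-/- and 0.309, 0.152 and 0.241 in Scx+/+. Both ratios were lowest in the pair. The log2 fold change of Mrc1 was -0.14 ± 0.22, and -0.01 ± 0.19 without the pair. The gene holds Mir511 within its bounds.

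Lyve1, a hyaluronan receptor of tissue macrophages and of lymphatic endothelium (chr7:117994121-118006467, minus strand), read 3.53, 3.54 and 4.0 RPKM in Scx-/- and 2.65, 6.10 and 3.07 RPKM in Scx+/+. It was highest in each genotype in the library that stood apart. The groups overlapped, with a log2 fold change of 0.00 ± 0.32 with all libraries and 0.30 ± 0.19 without the pair. Since lymphatic vessels also express Lyve1, the markers of lymphatic endothelium were set beside it. All 8 of that list were in the table and 0 of 8 were called, with a median log2 fold change of -0.11. Without the pair 1 of 8 was called, Prox1, lower in Scx-/- (-0.51 ± 0.14; limma, unadjusted p = 0.022, adjusted p = 0.578), where 8.44% of all genes were called, and the median was -0.18. With all libraries Prox1 was at -0.37 ± 0.27 (limma, unadjusted p = 0.205, adjusted p = 0.967). Their summed level was 30.2, 32.8 and 18.9 RPKM in Scx-/- and 29.4, 20.6 and 33.0 RPKM in Scx+/+, lowest in the libraries in which Lyve1 was highest. The chemokine Ccl21a was the most abundant at a mean of 7.48 RPKM, and no gene of the list was at the fill-in value. Prox1, the transcription factor that specifies lymphatic endothelium and is also expressed in cardiomyocytes, was at 6.28, 5.97 and 4.69 RPKM in Scx-/- and 8.43, 4.97 and 9.13 RPKM in Scx+/+. How far lymphatic RNA contributed to Lyve1 was not tested.

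Cd68, a heavily glycosylated protein of the lysosome and endosome of macrophages, was the one gene with separate groups. Its identifier is ENSMUSG00000018774, and it spans chr11:69477715-69479655 on the minus strand in mm9, with 6 exon blocks of 1257 bases in all. It was at 0.639, 1.54 and 0.812 RPKM in the libraries labelled Scx-/- (0.998 ± 0.480, SD, n = 3). In those labelled Scx+/+ it was at 0.358 RPKM, the fill-in value and 0.476 RPKM. All 3 Scx-/- libraries lay above all 3 Scx+/+ libraries, as was the case in either direction for 9.5% of all genes. The values stood on few reads, namely 42, 130 and 61 in Scx-/- and 27 and 41 in Scx+/+ replicates 1 and 3. The fill-in value of Scx+/+ replicate 2 stands for a low value that was replaced, and the lowest other value in that library was 0.120 RPKM, which for Cd68 is about 7.0 reads. That library held 2252 fill-in values over all genes, where each other library held 1088 to 1465. The 95% interval of Scx-/- replicate 1, 0.460 to 0.863 RPKM, overlapped that of Scx+/+ replicate 3, 0.341 to 0.645 RPKM.

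The log2 fold change of Cd68 was 1.48 ± 0.57, or 1.37 above the median of all genes (limma, unadjusted p = 0.029, adjusted p = 0.967). An exact two-sided permutation test on the same log2 values gave p = 0.1, the smallest that 3 against 3 allows. The call ended without Scx+/+ replicate 2, where the log2 fold change was 1.01 and the unadjusted p in limma 0.0723. It also ended without Scx-/- replicate 2 (1.14, unadjusted p in limma 0.0988) and without Scx-/- replicate 3 (1.57, unadjusted p in limma 0.0592). With the pair left out the difference was 1.10 ± 0.51 (limma, unadjusted p = 0.103, adjusted p = 0.588), and with male libraries alone it was 0.68. With replicate number as a block the unadjusted p in limma was 0.0592, and with its variance taken alone it was 0.0658.

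The 250 bases before the start of Cd68 are shown because it was the gene called, together with those of C1qb and C1qc, which are neighbours with starts of their own. They are RefSeq promoters of build GRCm38.p6, in a table with an entry for 7 of the 10 genes (not Csf1r, Lyve1 or C1qa), and capitals mark the letters GAGGAA or their reverse complement TTCCTC, the core read by Ets family factors such as PU.1.
Cd68 (chr11:69666171-69666420, minus strand): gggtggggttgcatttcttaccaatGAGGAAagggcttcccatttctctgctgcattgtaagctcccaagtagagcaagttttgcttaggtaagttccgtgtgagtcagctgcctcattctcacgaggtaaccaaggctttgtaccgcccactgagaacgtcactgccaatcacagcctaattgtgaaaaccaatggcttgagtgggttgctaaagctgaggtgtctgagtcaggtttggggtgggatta
C1qb (chr4:136886201-136886450, minus strand): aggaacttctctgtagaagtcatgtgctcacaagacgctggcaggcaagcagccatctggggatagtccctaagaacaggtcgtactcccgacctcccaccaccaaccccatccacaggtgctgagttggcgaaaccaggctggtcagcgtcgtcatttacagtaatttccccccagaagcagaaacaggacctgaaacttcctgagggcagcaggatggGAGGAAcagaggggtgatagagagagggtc
C1qc (chr4:136892915-136893164, minus strand): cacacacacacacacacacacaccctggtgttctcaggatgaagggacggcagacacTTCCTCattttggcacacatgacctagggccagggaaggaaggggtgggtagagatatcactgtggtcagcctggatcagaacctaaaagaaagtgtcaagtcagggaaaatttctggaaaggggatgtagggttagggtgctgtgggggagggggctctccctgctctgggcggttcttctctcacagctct
The letters were found on either strand in 5 of the 7 promoters (Mrc1, Cd68, Aif1, C1qb and C1qc), and in 23.3% of the 32851 promoters of the same length. They occurred 3 times in that of Mrc1 and were not in the windows of Cx3cr1 and Lyz2. Such a match is a description of the sequence and not a binding site.

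Aif1, which encodes the actin-bundling calcium-binding protein Iba1 (chr17:35307936-35313013, minus strand), was high in both female libraries. It was at 0.312, 1.6 and 0.590 RPKM in Scx-/- and 0.468, 1.31 and 0.638 RPKM in Scx+/+. The 164 and 93 reads of the replicates numbered 2 gave intervals of 1.36 to 1.86 RPKM and 1.06 to 1.6 RPKM, above those of the 4 male libraries. The relation to sex was not tested. Aif1 ranged 5.12-fold over the libraries, with a log2 fold change between genotypes of -0.10 ± 0.60 with all libraries and 0.37 ± 0.81 without the pair.

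Lyz2 (chr10:116714390-116719377, minus strand) was at 29.3, 36.7 and 22.0 RPKM in Scx-/- and 31.2, 28.8 and 31.1 RPKM in Scx+/+. The Scx-/- libraries enclosed all the Scx+/+ values, and the log2 fold change was -0.08 ± 0.20, or 0.08 ± 0.15 without the pair. Lyz2 made up 56.4% to 67.6% of the summed RPKM of the 10 genes in each library. Its paralogue Lyz1, the lysozyme of Paneth cells, is close enough in sequence to share reads. The coding sequences, both 447 bases, are identical at 95.1% of positions, and the longest identical run is 118 bases. The exons of Lyz2 hold 1313 bases in all, and those outside the coding sequence were not compared. The most divergent 120 bases, from position 37 to position 156 of the coding sequence in the Ensembl transcripts of mm9, are shown with capitals at the 14 bases that differ.
Lyz2: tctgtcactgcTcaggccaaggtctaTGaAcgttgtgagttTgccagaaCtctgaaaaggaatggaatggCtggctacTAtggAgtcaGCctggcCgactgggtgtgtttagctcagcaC
Lyz1: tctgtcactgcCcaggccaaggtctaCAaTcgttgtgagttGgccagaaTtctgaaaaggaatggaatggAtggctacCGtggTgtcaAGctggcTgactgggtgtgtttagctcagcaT
Lyz1 was listed at 3.87, 7.97 and 2.82 RPKM in Scx-/- and 6.52, 3.39 and 5.63 RPKM in Scx+/+. This was 13.2, 21.7 and 12.8 RPKM per 100 RPKM of Lyz2 in Scx-/- and 20.9, 11.8 and 18.1 in Scx+/+. How reads from the identical stretches were assigned was not given in the sources used here, so both levels are uncertain.

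The C1q chains lie side by side on chromosome 4 on the minus strand, C1qa at 136451832-136454718, C1qc at 136445719-136448980 and C1qb at 136436044-136442102. C1qa was at 5.75, 6.13 and 2.64 RPKM in Scx-/- and 4.58, 3.69 and 2.13 RPKM in Scx+/+. C1qb was at 2.99, 1.74 and 1.78 RPKM in Scx-/- and 2.22, 4.24 and 1.94 RPKM in Scx+/+. C1qc was at 0.732, 1.18 and 0.503 RPKM in Scx-/- and 0.845, 1.04 and 1.32 RPKM in Scx+/+. The chains did not share an order of libraries, since C1qa was highest in Scx-/- replicate 2, C1qb in Scx+/+ replicate 2 and C1qc in Scx+/+ replicate 3. Their sum was 9.47, 9.05 and 4.93 RPKM in Scx-/- and 7.65, 8.96 and 5.40 RPKM in Scx+/+. The log2 fold changes were 0.45 ± 0.39 for C1qa, -0.31 ± 0.37 for C1qb and -0.42 ± 0.41 for C1qc, and the groups of each chain overlapped. Without the pair they were 0.90 ± 0.42, 0.13 ± 0.34 and -0.17 ± 0.40, with no chain called.

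The summed level of the 10 genes was 49.2, 59.1 and 36.9 RPKM in Scx-/- and 48.1, 51.0 and 45.9 RPKM in Scx+/+. Most of each sum was Lyz2, which monocytes and granulocytes also express, so it is not a measure of macrophages alone. The highest and the lowest sums were both Scx-/-, and the ratio of group means was 1.00. Without Lyz2 the sums were 19.9, 22.3 and 15 RPKM in Scx-/- and 17.0, 22.2 and 14.9 RPKM in Scx+/+. Leaving out the pair gave a ratio of 1.15 for the 10 genes, a median log2 fold change of 0.30 over them and 0.14 over all genes, and 0 of 10 genes called where 8.44% of all genes were.

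A wider list of tissue macrophage genes had 22 of 28 in the table, and 0 of 22 were called. Its median log2 fold change was 0.07, with 14 of 22 above 0. Without the pair the median was 0.10 and 2 of 22 were called, both higher in Scx-/-, where 8.44% of all genes were called, or 8.22% of the 17774 genes with a measured value in both genotypes. These were the Fc receptor Fcgr1 (1.45 ± 0.34; limma, unadjusted p = 0.0152, adjusted p = 0.578) and the folate receptor Folr2 (1.4 ± 0.46; limma, unadjusted p = 0.0405, adjusted p = 0.578). Of the Scx+/+ libraries kept, 1 was at the fill-in value for each gene and the other was at 0.0892 RPKM for Fcgr1 and 0.268 RPKM for Folr2, so size and spread depend in part on that value. With all libraries Fcgr1 was at 0.18 ± 0.84 (limma, unadjusted p = 0.839, adjusted p = 0.995) and Folr2 at 0.33 ± 0.72 (limma, unadjusted p = 0.656, adjusted p = 0.98). Fcgr1 was highest in Scx+/+ replicate 2, at 1.31 RPKM. The sum was 166, 161 and 123 RPKM in Scx-/- and 147, 131 and 154 RPKM in Scx+/+, lowest in the libraries that stood apart. Apoe, an apolipoprotein that other cells also make, was the most abundant at 89.5 RPKM. Of genes more restricted to macrophages, Adgre1, a surface receptor of mature macrophages, was at 2.34, 2.02 and 1.42 RPKM in Scx-/- and 1.55, 1.70 and 0.890 RPKM in Scx+/+, and the phagocytic receptor Mertk was at 2.27 to 3.27 RPKM. Fcgr1, Folr2, Fcer1g, Laptm5 and Ms4a7 were at the fill-in value in 1 library each and Cbr2 in 3. Cd163, Timd4, Trem2, Cd14, Siglec1 and Clec4a2 were not listed. Thus 6 of 22 genes had a fill-in value in some library, and the others were measured in every one. Ptprc, the phosphatase carried by all leukocytes, was among these at 0.251 to 0.572 RPKM.

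Of the myeloid transcription factors 7 of 10 were listed and 0 of 7 were called, with a median log2 fold change of 0.02. Spi1, which encodes PU.1, was at the fill-in value in Scx-/- replicates 1 and 2 and at 0.248 RPKM in replicate 3, against 0.420, 0.280 and 0.406 RPKM in Scx+/+. These groups did not overlap, as was the case for 9.5% of all genes, and the order was opposite to that of Cd68. The log2 fold change of Spi1 was -0.97 ± 0.57 with all libraries, which was not called (limma, unadjusted p = 0.124, adjusted p = 0.967). With 2 of 3 Scx-/- values at the fill-in value, its size and spread depend on that value, and it was -0.26 with a pseudocount of 1. Without Scx-/- replicate 3 or without the pair no measured Scx-/- value of Spi1 remains, so its calls there are set aside. Of the other 6 genes 0 were called without the pair, with a median of 0.08. Irf5 was the most abundant of the list at 3.88 RPKM, and the sums were 7.21, 6.35 and 7.12 RPKM in Scx-/- and 8.34, 7.56 and 5.86 RPKM in Scx+/+. Cebpa, Runx1 and Ikzf1 were not listed.

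Among ligands of macrophage receptors, 4 of 6 were listed, 0 of 4 were called and the median log2 fold change was 0.28. Without the pair the median was 0.52 and 1 of 4 was called, the monocyte chemokine Ccl2, higher in Scx-/- (0.88 ± 0.28; limma, unadjusted p = 0.0359, adjusted p = 0.578), where 8.44% of all genes were called. With all libraries Ccl2 was at 0.35 ± 0.62 (limma, unadjusted p = 0.59, adjusted p = 0.979), and it was highest in Scx+/+ replicate 2, at 2.56 RPKM. Csf1 was at 0.745, 0.525 and 0.716 RPKM in Scx-/- and 0.842, 0.667 and 0.515 RPKM in Scx+/+, with overlapping groups. Cx3cl1, the ligand of Cx3cr1, was at 0.881, 0.737 and 0.302 RPKM in Scx-/- and 0.391, 0.174 and 0.480 RPKM in Scx+/+, and was lowest in the same pair of libraries as its receptor. The chemokine Cxcl12 led the list at 5.06 RPKM, and Il34 and Tgfb1 were not listed. The sums were 8.53, 7.73 and 7.32 RPKM in Scx-/- and 6.74, 7.96 and 5.89 RPKM in Scx+/+.

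The partners and regulators of classical complement had 6 of 10 listed and 0 of 6 called, with a median log2 fold change of 0.09, or without the pair 0 of 5 and 0.04, C1s having no measured Scx+/+ value there. Cd93, a receptor of endothelium and myeloid cells, was the most abundant at 27.6 RPKM. C1s, the protease that acts with C1q, was at the fill-in value in 3 libraries. It read 0.964 and 0.586 RPKM in the pair that stood apart. C3, given above, was high in the same pair. The sums were 48.3, 43.2 and 39.4 RPKM in Scx-/- and 48.9, 42.7 and 42.1 RPKM in Scx+/+. C1ra, C2, C4b and C5ar1 were not listed.

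Genes for the uptake of dying cells were all listed, and 0 of 13 were called, with a median log2 fold change of -0.14, or 0 of 13 and -0.17 without the pair. The scavenger receptor Cd36, which cardiomyocytes and capillary endothelium also express, was the most abundant at 197 RPKM. It was at 310 and 308 RPKM in the pair and at 117 to 155 RPKM in the other libraries. The sums, which include Cd36 and were also highest in the pair, were 306, 277 and 420 RPKM in Scx-/- and 295, 442 and 259 RPKM in Scx+/+. Of the 13 genes Cd36 was the 1 that was highest in the pair, and 4 were lowest there. The bridging proteins Gas6 and Mfge8, which link dying cells to their receptors, were at 43.6 and 38.1 RPKM over all libraries. Gas6 and Megf10, named after their values were seen, were the 2 of 13 genes whose groups did not overlap, both lower in Scx-/- and neither called, where the groups of 9.5% of all genes did not overlap.

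Of the monocyte and neutrophil list, which also holds Lyz1, 7 of 12 genes were listed and 0 of 7 were called, with a median log2 fold change of 0.02. The pair held the highest values of 4 of the 7 genes and the lowest of Lyz1. Its sum was 29.6 and 40.5 RPKM in Scx-/- replicate 3 and Scx+/+ replicate 2, where the other 4 libraries had 7.62 to 12.5 RPKM. Ly6c1 was the most abundant at 5.62 RPKM. The calprotectin genes S100a8 and S100a9 were at 3.84 and 2.66 RPKM in Scx-/- replicate 3 and at 11.2 and 7.30 RPKM in Scx+/+ replicate 2. Without the pair no measured Scx+/+ value of S100a9 remains, since both libraries kept are at the fill-in value. Its call there, like those with male libraries alone and without Scx+/+ replicate 2, is therefore set aside. Of the other 6 genes 0 were called without the pair, with a median of -0.04. The neutrophil granule gene Ngp was at most 0.424 RPKM and at the fill-in value in 1 library, as was Ly6c2, and S100a9 was at it in 2. Mpo, Elane, Camp, Csf3r and Cd177 were not listed. Ccr2, a receptor of recruited monocytes, was at 0.526, 0.766 and 0.516 RPKM in Scx-/- and 0.307, 0.677 and 0.406 RPKM in Scx+/+. The part of these cells in the values of Lyz2, which they also express, was not tested.

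Of mast cell and lymphocyte genes 3 of 10 were listed, 0 of 3 were called and the median log2 fold change was 0.07, or 0 of 3 and 0.02 without the pair. The mast cell protease Cpa3 led at 3.48 RPKM, no listed gene was at the fill-in value and the sums ran from 4.98 to 6.84 RPKM. Cd3e, Cd3g and Nkg7, genes of T cells and natural killer cells, were not listed. Erythroid genes summed to 13500, 14300 and 9500 RPKM in Scx-/- and 7810, 10600 and 14000 RPKM in Scx+/+, led by Hba-a1 at 3440 RPKM, with 0 of 9 called and a median log2 fold change of 0.24, or 0 of 9 and 0.39 without the pair. Hbb-bh1 was at the fill-in value in 3 libraries, among them both that stood apart. Whether blood content contributed to the spread of the macrophage genes was not tested.

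Genes of the dissected tissue were abundant beside those of macrophages. Valve and cushion mesenchyme genes were all listed, led by the matricellular gene Postn at 254 RPKM. Their sum was 460, 581 and 648 RPKM in Scx-/- and 456, 517 and 427 RPKM in Scx+/+, with a median log2 fold change of -0.02. Of these 10 genes 1 was called, where 3.89% of all genes were. This was Tcf21, a transcription factor of epicardium-derived fibroblasts, at 8.61, 9.20 and 10.4 RPKM in Scx-/- and 5.09, 7.38 and 6.56 RPKM in Scx+/+ (log2 fold change 0.57 ± 0.21; limma, unadjusted p = 0.0225, adjusted p = 0.967). The call ended without Scx-/- replicate 2, Scx-/- replicate 3 or Scx+/+ replicate 1 and under both other normalizations. The log2 fold change of Tcf21 lay between 0.42 and 0.58 in these fits. Without the pair Tcf21 was at 0.61 (limma, unadjusted p = 0.0329, adjusted p = 0.578), again the 1 of 10 genes called, where 8.44% of all genes were, and the median was -0.08. Endothelial and endocardial genes summed to 118 to 139 RPKM, led by Pecam1 at 36.2 RPKM, with 0 of 8 called and a median log2 fold change of -0.22, or 0 of 8 and -0.15 without the pair.

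Cardiomyocyte genes summed to 22000, 18300 and 26600 RPKM in Scx-/- and 18500, 29200 and 16200 RPKM in Scx+/+, so myocardial RNA was in every library, with the highest sums in the pair. The most abundant was the myosin light chain gene Myl2 at 8450 RPKM, and the median log2 fold change was 0.08. The 1 of 9 genes called, where 3.89% of all genes were, was Ryr2, the calcium release channel of the sarcoplasmic reticulum. It was at 34.3, 31.7 and 44.2 RPKM in Scx-/- and 49.3, 45.8 and 55.9 RPKM in Scx+/+ (log2 fold change -0.46 ± 0.18; limma, unadjusted p = 0.0308, adjusted p = 0.967). Its call ended when either of Scx-/- replicates 1 and 2 or of Scx+/+ replicates 1 and 3 was left out, with male libraries alone and with no intensity trend. Its log2 fold change lay between -0.48 and -0.36 in these fits. Without the pair it was -0.67 (limma, unadjusted p = 0.00585, adjusted p = 0.578). The median of the list was then 0.28, and the atrial peptide gene Nppa was also called, higher in Scx-/- at 0.82 ± 0.26 (limma, unadjusted p = 0.0406, adjusted p = 0.578), against -0.01 ± 0.47 with all libraries (limma, unadjusted p = 0.98, adjusted p = 1.0). This made 2 of 9 called, where 8.44% of all genes were. The part of tissue composition in the levels of the macrophage genes was not tested.

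**Figure D4:**
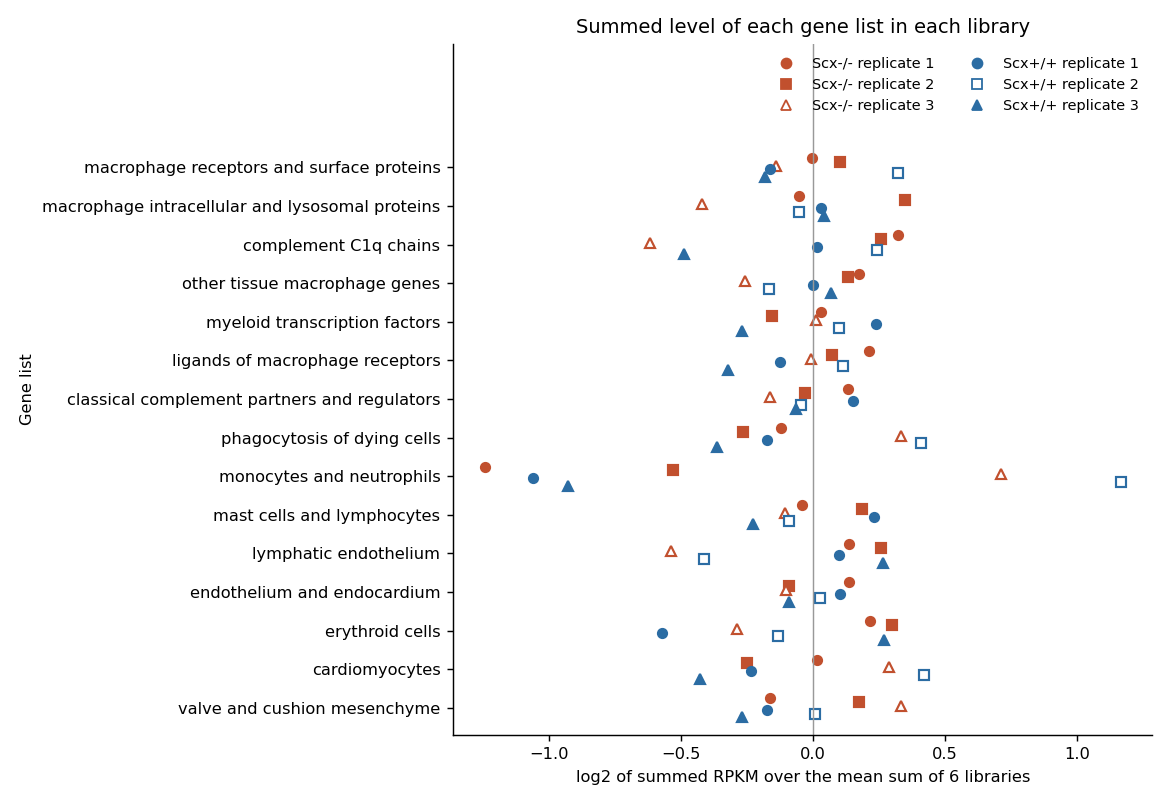
Summed RPKM of each gene list in each library, as log2 of its ratio to the mean sum of the 6 libraries; red is Scx-/-, blue is Scx+/+, and open symbols are Scx-/- replicate 3 and Scx+/+ replicate 2. The open symbols lie highest for monocytes and neutrophils (29.6 and 40.5 RPKM), for phagocytosis of dying cells and for cardiomyocytes, and lowest for lymphatic endothelium (18.9 and 20.6 RPKM) and for other tissue macrophage genes. Of the 13 phagocytosis genes 1, the abundant Cd36, was highest in these libraries and 4 were lowest. Ly6c1, found on some endothelium too, gave 14.9 and 15.2 RPKM of the monocyte and neutrophil sums. Of the 7 genes on that list 4 were highest in these libraries and 1, Lyz1, was lowest.

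The mean of the centred log2 values of the 10 genes was 0.07, 0.45 and -0.29 in Scx-/- and -0.08, -0.02 and -0.13 in Scx+/+. It was highest in Scx-/- replicate 2 and lowest in Scx-/- replicate 3. Of the other 13822 genes that averaged 1 RPKM or more, the 10 most like this profile were Stim1, Dusp12, Nthl1, Zfp963, Espl1, Apitd1, Gm9046, Gm16929, Glrb and Gm5576, with Pearson r from 0.985 to 0.941 over the 6 libraries. Stim1, a calcium sensor of the endoplasmic reticulum, was closest, at 1.84, 2.62 and 1.14 RPKM in Scx-/- and 1.38, 1.68 and 1.45 RPKM in Scx+/+. None was on a list of immune cell genes. The r values are a description over libraries that also differ in depth, sex and blood and muscle RNA, chosen as the highest of many.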

How the data were processed

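RNA from 6 atrioventricular canal regions was sequenced on a HiSeq 2000, with 3 libraries per genotype. The authors aligned reads with TopHat 1.4.1 to mm9, counted them over Ensembl exons with easyRNASeq and deposited RPKM values. Genes with too few reads in every library had been dropped by the authors, and 8395 low values stand at a fill-in value of 0.0949 RPKM. Of 18810 identifiers, 18695 were matched to GENCODE for mm9. Depth was solved for as the library size at which RPKM times exon length was whole to within 0.1 read for 98.45% to 98.56% of values below 1000 reads. It served only to give reads and counting intervals. Sex was read from Xist and Y-linked genes.

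Genotypes were compared with limma 3.58.1 (R 4.3.3), fitted to log2(RPKM + 0.1) with an intensity trend on the moderated variance and without covariates, and p-values were adjusted over 18810 genes by Benjamini-Hochberg. Fold changes keep the 0.1, so those of low genes are understated. Calls were made at an unadjusted p of 0.05. The script was tested on simulated data. The alternatives were pseudocounts of 0.01 and 1, a filter at a mean of 1 RPKM, no trend, one-way ANOVA on log2 values, quantile normalization, the median of each library set to 0, the replicate number as a block, sex as a covariate, male libraries alone and each library left out. Leaving out both libraries that stood apart was added after seeing the data. Other steps used matplotlib 3.10.9, scipy 1.17.1, pandas 2.3.3 and numpy 2.4.6 under Python 3.11.15.

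The members and gene lists were chosen with earlier results of these data known. Named are the 10 genes, list genes that were called, the most abundant gene of each list and those at the fill-in value, Lyz1, Scx and the 10 genes most like the members. Other genes were named after their values were seen.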

Additional observations from a re-analysis of the deposited data

How the results depend on the processing

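Of the 10 macrophage genes, the count called was 1 with all libraries and 0 with a filter at a mean of 1 RPKM (which 5 of the 10 passed, Cd68 not among them), one-way ANOVA on log2 values, male libraries alone or the pair left out, and it ran from 0 to 1 with each library left out. The replicate block also gave 0, and 573 calls over all genes against 731. Same-numbered libraries had correlations of 0.09, -0.22 and -0.19, and not every library correlated best with its own number. The highest correlation, 0.32, was between the pair that stood apart, whose numbers differ. These values therefore cannot show whether the numbers pair the libraries. Calls over all genes numbered 1704 with male libraries alone and 1587 without the pair, and ran from 539 to 1549 with each library left out, the highest without Scx+/+ replicate 2. The median log2 fold change of the 10 genes was -0.04, ran from -0.13 to 0.10 with each library left out, and was 0.30 without the pair. The median of all genes was 0.10, fell to 0.02 with quantile normalization and 0.00 with medians set to 0, and ran from 0.06 to 0.14. The ratio of summed RPKM stayed between 0.89 and 1.15.

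The sign of the log2 fold change turned for Lyve1 with a pseudocount of 1 (-0.01), quantile normalization (-0.05) and medians set to 0 (-0.11), and for Scx with the same normalizations (-0.04 in both). It also turned for Fcgr1 with a pseudocount of 1 (-0.07) and for Nppa with quantile normalization (0.04). With male libraries alone it turned for Csf1r (-0.16), Cx3cr1 (-0.05), C1qb (0.15) and Nppa (0.48). Without the pair it turned for Aif1 (0.37), Lyz2 (0.08), C1qb (0.13), Nppa (0.82) and Scx (-0.15). With each library left out, it ran from -0.02 to 0.45 for Csf1r, -0.23 to 0.36 for Lyve1, -0.65 to 0.37 for Aif1, -0.26 to 0.11 for Lyz2, -0.56 to 0.02 for C1qb, -0.58 to 0.15 for Lyz1, -0.31 to 1.14 for Fcgr1, -0.16 to 0.88 for Folr2, -0.08 to 1.10 for Ccl2, -0.39 to 0.52 for Nppa and -0.50 to 0.57 for Scx. It ran from 0.14 to 0.83 for C1qa, -0.70 to -0.16 for C1qc, 0.18 to 0.91 for Cx3cr1, -0.21 to -0.03 for Mrc1 and -0.64 to -0.21 for Prox1. Of genes not called with all libraries, Lyz1 (-0.86), Ccl2 (1.23) and Prox1 (-0.68) were called with male libraries alone, and Ccl2 (1.10) and Prox1 (-0.64) also without Scx+/+ replicate 2. Spi1 was called with no trend and in the ANOVA, with 2 of 3 Scx-/- values at the fill-in value. Its calls without Scx-/- replicate 3 or the pair, and all those of S100a9, are set aside since 1 genotype had no measured value there. Cd68 was higher in Scx-/- under every alternative that tested it. Since its groups did not overlap, no fit that left libraries out could have turned its sign. The fits with no trend, with the ANOVA, with the replicate block and with sex kept its log2 fold change at 1.48 by design. The causes were not tested. Of 349 values of 21 named genes under alternatives, 276 kept sign and side of the threshold. The 349 include the values set aside. They also include the fits with no trend, the ANOVA, the replicate block and sex, which could not turn a sign.

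The number of libraries, 3 per genotype, and the few reads of Cd68, Aif1 and C1qc limit the precision of the differences. The libraries came from separate embryos, and litter was not given.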
